A study of Mus musculus with 4 samples.

Results

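The genes described here mark macrophages as such, the macrophages that live in the peritoneal cavity, and the cells that arrive there from blood monocytes. Of 36 genes listed by symbol, 35 were measured by a probe set that carries 1 gene symbol, among 22180 genes measured in that way. The exception was Zeb2, whose probe sets also carry another symbol, so it is not reported here. The 35 genes comprised 5 surface and lysosomal genes of macrophages, 7 transcription factors of the lineage, 6 transcription factors and 10 products of resident peritoneal macrophages, 2 genes of resident macrophages in other tissues, and 5 genes of monocytes and monocyte-derived cells. The RNA came from peritoneal macrophages of wild type DBA/2J mice (DBA) and wild type 129S6/SvEvTac mice (129) on regular chow. The mice, 3 months old, received 1 ml of 4% thioglycollate medium in the peritoneal cavity and were lavaged 4 days later, and the cells were cultured overnight. Each strain gave 1 female and 1 male RNA pool, each of 3 mice per the labels (the methods give a larger number), so that 4 pools were measured on 4 Affymetrix whole-transcript arrays. All pools were therefore elicited and cultured, and no pool of unstimulated resident cells was analysed here. The question asked of these genes is whether the macrophages of the 2 strains differ in the balance of resident and monocyte-derived genes.

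Macrophages of the mouse peritoneal cavity come in a large resident form and a small form. The large cells settle early in life, renew themselves locally, and depend on the retinoic acid-induced factor GATA6 for their program. The small cells are fed by blood monocytes that enter through the chemokine receptor CCR2, and IRF4 takes part in their development. Thioglycollate is an irritant that draws many monocytes into the cavity, where they become macrophages and outnumber the resident cells.

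In DBA macrophages the monocyte-derived genes Irf4, Ccr2 and Ly6c2 had higher values than in 129 macrophages, in females and in males. The resident factor Gata6, the complement receptor Vsig4 and the folate receptor Folr2 had lower values in both DBA pools, whereas Ednrb, also listed as a resident gene, was about 2.02 times as high in DBA. The 5 surface and lysosomal genes of macrophages differed little, between -0.09 and 0.34 on the log2 scale, whereas 17 further macrophage genes ran between -0.69 and 1.46. No gene of the 35 passed an adjusted p of 0.05 in limma (0 higher and 0 lower in DBA), where 0.216% of all genes were called higher and 0.158% lower. When p was not adjusted, 8 of the 35 had a p under 0.05 with higher values in DBA and 3 with lower values, against 6.44% and 5.08% of all genes tested. Both DBA pools lay above both 129 pools for 15 of the 35 genes and below them for 11, and the pools overlapped for 9, where 23% of all genes lay wholly above and 21.4% wholly below. The differences of the 35 genes had a median of 0.13 on the log2 scale, and those of all genes 0.004. The smallest p that an exact permutation test of 2 pools against 2 can reach is 0.333.

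**Figure D1:**
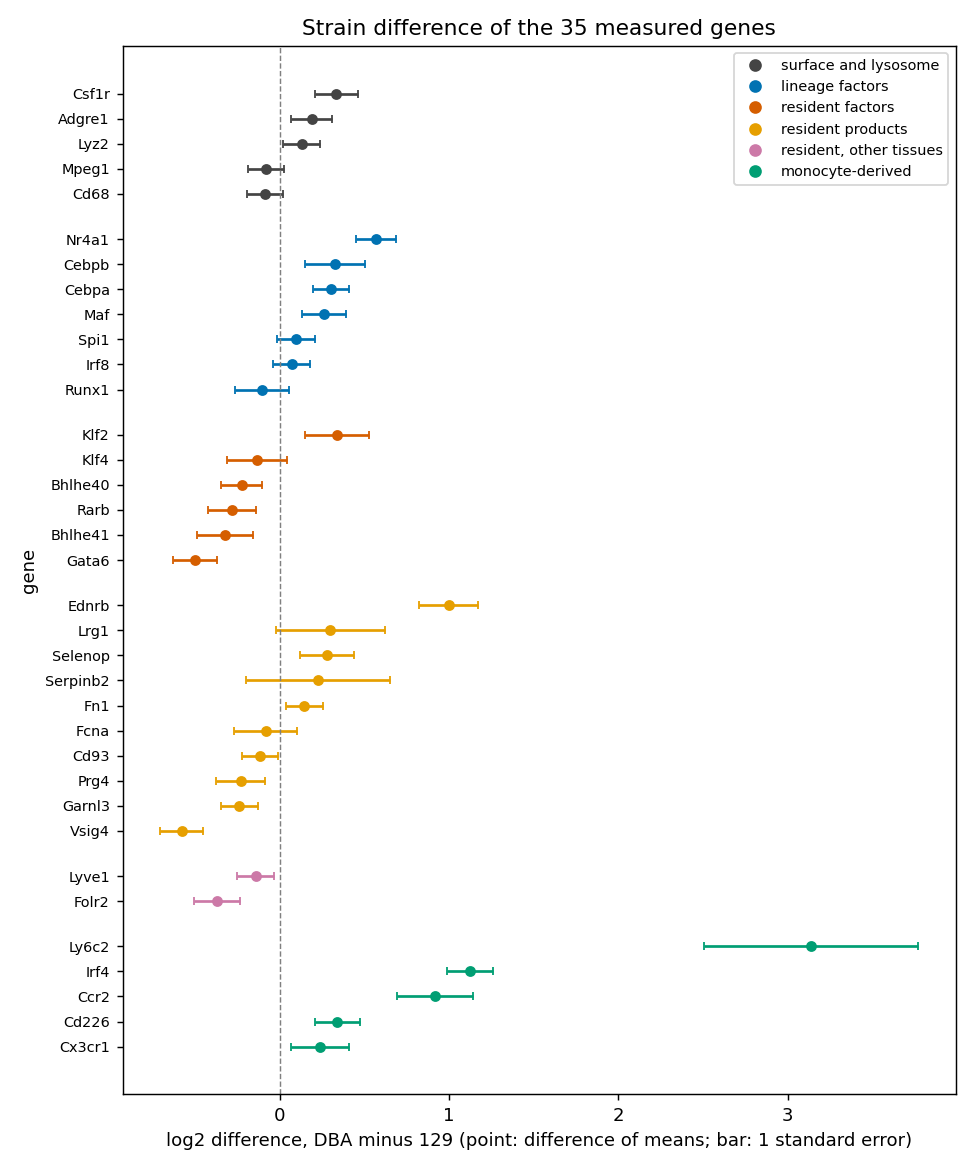
Difference of the mean log2 values, DBA minus 129, for the 35 measured genes in their 6 groups, with bars of 1 standard error from limma. The 5 monocyte-derived genes all lie to the right of 0, led by Ly6c2 at 3.14, and 5 of the 6 resident factors lie to the left, down to Gata6 at -0.50.

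The arrays differed little as wholes: the median log2 value over all genes lay between 7.65 and 7.67 in the DBA pools and between 7.69 and 7.70 in the 129 pools, and the pairwise correlations over probe sets ran between 0.970 and 0.987. Arrays give no detection call, so a log2 value of 7.17, below which 95% of 1390 odorant and vomeronasal receptor genes had their mean, is used as a reference for background. All 8 macrophage markers lay above this reference in every pool. Their summed linear levels were 61674 (DBA female) and 59661 (DBA male), against 57314 (129 female) and 57103 (129 male). These markers include the 5 surface and lysosomal genes and were chosen after their values were seen, so they are no independent check of the labelled cell type. Markers of B cells were present too, and for all 9 measured B cell markers (Cd79a, Ms4a1 and others) the DBA pools lay wholly above the 129 pools, with sums of 8448 (DBA female) and 3848 (DBA male), against 2712 (129 female) and 2327 (129 male). Of these 9 markers, 8 had an unadjusted p under 0.05 and Cr2 lay below the background reference in all pools. Over all genes, 6.44% were higher and 5.08% lower in DBA at that threshold, and 23% had DBA pools wholly above. Markers of mesothelial cells and fibroblasts summed to 6890 (DBA female) and 8794 (DBA male), against 10518 (129 female) and 9608 (129 male), and 4 of the 10 (Col1a1, Col3a1, Dcn and Pdgfra) were lower in DBA at an unadjusted p under 0.05. The 10 neutrophil markers summed to 8757 (DBA female) and 6532 (DBA male), against 5813 (129 female) and 5112 (129 male). Csf3r was the highest of the 10 in every pool and weighed most in these sums. It had log2 values of 12.49 and 12.03 in DBA female and male pools, and 11.85 and 11.78 in 129 female and male pools. Of these 10, 4 were higher in DBA and 0 lower at an unadjusted p under 0.05, namely S100a8 (0.74 ± 0.20), Mmp8 (0.84 ± 0.29), Csf3r (0.45 ± 0.17) and Ly6g (0.36 ± 0.11), while 6 of the 10, Ly6g among them, lay below the background reference in all pools and the median difference was -0.03. Of 7 mast cell markers, 1 rose in DBA, the protease gene Mcpt4 (1.80 ± 0.17, limma adjusted p = 0.0245), a call lost when every probe set was tested (0.239) and without the 129 female or the 129 male pool (0.128 and 0.162). Both 129 values of Mcpt4, 5.82 in the female and 5.96 in the male pool, lay under the background reference. The pools of the other 6 mast cell markers overlapped. The 7 markers summed to 2342 (DBA female) and 2421 (DBA male), against 2381 (129 female) and 1768 (129 male). Of the eosinophil markers 5 of 6 lay below the background reference in all pools. Of 6 measured dendritic cell markers, 1 (Zbtb46, 0.35 ± 0.11) was higher and 0 lower in DBA at an unadjusted p under 0.05, with a median of -0.07. Of 9 measured T and NK cell markers, 1 was higher and 2 lower at that threshold, the median was -0.15, and 4 lay below the background reference in all pools. In these bulk samples, fewer cells of a type and less RNA per cell cannot be told apart.

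Among the general macrophage genes, Csf1r, which encodes the receptor for the growth factor CSF1 on which macrophages depend, had log2 values of 13.17 and 13.04 in DBA female and male pools, against 12.87 and 12.67 in 129 female and male pools. The DBA pools lay above the 129 pools, and the difference was 0.34 ± 0.13 (SE, n = 2 pools per strain), with a limma adjusted p of 0.405. Adgre1, which encodes the F4/80 antigen used to stain mouse macrophages, had 13.25 and 13.06 in DBA female and male pools, and 13.01 and 12.92 in 129 female and male pools. Its pools did not overlap either, but the difference of 0.19 ± 0.12 did not pass (limma adjusted p = 0.586). Lyz2, the macrophage lysozyme gene, differed by 0.13 ± 0.11, with values of 13.63 and 13.70 in DBA and 13.49 and 13.57 in 129. The probes of Lyz2 may also read its close copy Lyz1, so that value is uncertain. Cd68, which encodes a lysosomal glycoprotein, differed the other way by -0.09 ± 0.11, with 13.41 and 13.45 in DBA and 13.48 and 13.55 in 129. Mpeg1, the gene of the pore-forming protein perforin-2, likewise differed by -0.08 ± 0.11. The adjusted p of these 4 genes was between 0.586 and 0.793. The median of the 5 differences was 0.13, and for each of these 5 genes the means of the strains lay within 0.34 of each other.

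**Figure D2:**
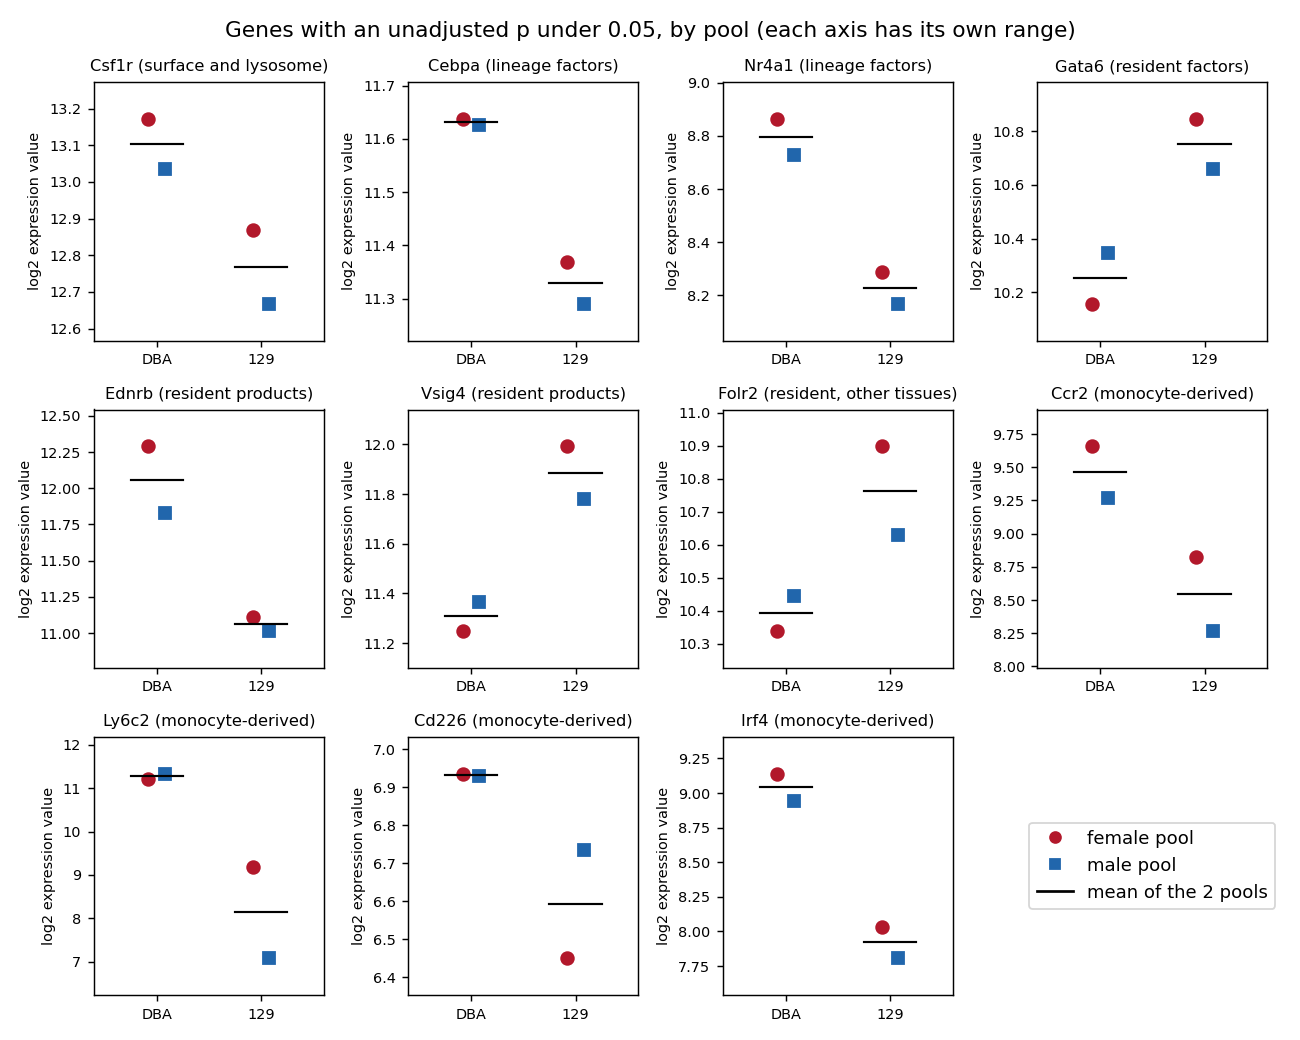
Log2 expression values of the 11 genes with an unadjusted p under 0.05, with a circle for each female pool, a square for each male pool and a line for the mean of the 2 pools. DBA is at the left of each panel and 129 at the right, and the DBA pools lie on 1 side of the 129 pools in all 11 panels.

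The factors of the macrophage lineage include Spi1, the gene of PU.1, which myeloid cells need in order to form. Spi1 had log2 values of 11.42 and 11.50 in DBA female and male pools, against 11.42 and 11.31 in 129 female and male pools, a difference of 0.10 ± 0.11 with an adjusted p of 0.762. Irf8, a partner of PU.1 in monocytes and macrophages, differed by 0.07 ± 0.11, and its pools overlapped. The differences of both core factors were thus no larger than their errors. Cebpa, which encodes a factor of early myeloid cells, was higher, with 11.64 and 11.63 in DBA and 11.37 and 11.29 in 129, a difference of 0.30 ± 0.11 (limma adjusted p = 0.376). Its relative Cebpb, which macrophages use in activation, differed by 0.33 ± 0.18, and most of that lay in the male pools, where the 129 pool had 10.19 and the DBA pool 10.80.

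Nr4a1, an immediate early gene that the patrolling Ly6C-low monocytes need, had 8.86 and 8.73 in DBA female and male pools, against 8.29 and 8.17 in 129 female and male pools. The 2 strains stood well apart beside the gap of at most 0.13 between pools of a strain, and the difference was 0.57 ± 0.12, a ratio of 1.48, with a limma adjusted p of 0.194. Maf, whose product restrains the self-renewal of macrophages, differed by 0.26 ± 0.13, with 10.87 and 10.64 in DBA and 10.42 and 10.57 in 129. Averaging both probe sets of Maf gave 0.48 and of Irf8 0.18, in the same direction as the probe set with the highest mean. Runx1, a factor of blood cell formation, had 11.11 and 10.90 in DBA and 10.93 and 11.29 in 129, so that its pools overlapped and the sexes differed in direction. Of the 7 lineage factors, 6 had positive differences, as had 11306 of all 22180 genes. At an unadjusted p under 0.05, 2 (Cebpa and Nr4a1) were higher and 0 lower in DBA, against 6.44% and 5.08% of all genes. The median was 0.26, which was 0.15 when the DBA female pool was left out and 0.09 when the 129 male pool was.

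The resident program of the peritoneal cavity is headed by Gata6, which large peritoneal macrophages need in order to keep their identity and number. Gata6 had log2 values of 10.16 and 10.35 in DBA female and male pools, against 10.85 and 10.66 in 129 female and male pools. Both DBA pools lay below both 129 pools, and the difference was -0.50 ± 0.13, a ratio of 0.707, with a limma adjusted p of 0.270. It was -0.69 between the female pools and -0.31 between the male pools. Gata6 is also expressed by mesothelial cells, and the markers of mesothelial cells and fibroblasts differed between the pools as well, the collagen gene Col3a1 by -0.58 ± 0.10 and the fibroblast receptor gene Pdgfra by -0.75 ± 0.25. Within that list the mesothelial markers Upk3b and Lrrn4 differed the other way, by 0.61 ± 0.26 and 0.55 ± 0.28. Those differences lay mostly in the male pools, at 1.12 and 1.03, against 0.09 and 0.06 in the female pools. Wt1 and Krt19 differed by -0.14 ± 0.19 and -0.06 ± 0.13 with overlapping pools, and Msln lay below the background reference in 3 of 4 pools. The part of these cells in the Gata6 value was not tested.

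Rarb encodes a retinoic acid receptor, and retinoic acid is the signal that induces Gata6 in the cavity. Its values were 7.997 and 8.33 in DBA female and male pools and 8.45 and 8.43 in 129 female and male pools, a difference of -0.28 ± 0.14. Bhlhe40 and Bhlhe41 encode paired helix-loop-helix repressors, and Bhlhe40 is needed for the proliferation of large peritoneal macrophages. Bhlhe40 had 12.01 and 12.22 in DBA and 12.36 and 12.33 in 129, a difference of -0.22 ± 0.12. Bhlhe41 had 11.53 and 11.96 in DBA and 12.10 and 12.04 in 129, a difference of -0.32 ± 0.17. In all of these 3 genes both DBA pools lay below both 129 pools and the DBA female pool was the lowest, while none of the 3 had an unadjusted p under 0.05 and their adjusted p was between 0.506 and 0.532. Without the DBA female pool the differences were -0.12 for Rarb, -0.12 for Bhlhe40 and -0.10 for Bhlhe41, and without the DBA male pool they were -0.45, -0.33 and -0.54.

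The Krüppel-like factors, which act in the quiescence and polarisation of macrophages, did not follow. Klf2 had 9.15 and 9.44 in DBA female and male pools and 9.18 and 8.73 in 129 female and male pools, so that it differed by -0.03 in females and by 0.71 in males. Klf4 had 8.63 and 9.09 in DBA and 9.08 and 8.91 in 129, with differences of -0.45 in females and 0.18 in males. The pools of both genes overlapped. Over the 6 resident factors the median difference was -0.25, with 0 genes wholly above and 4 wholly below, against 23% and 21.4% of all genes. Of the 6, 1 gene (Gata6) had an unadjusted p under 0.05, and 5.08% of all genes were lower in DBA at that threshold. In the female pools alone the median was -0.45, and in the male pools alone -0.09, which was not tested as a difference between the sexes.

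**Figure D3:**
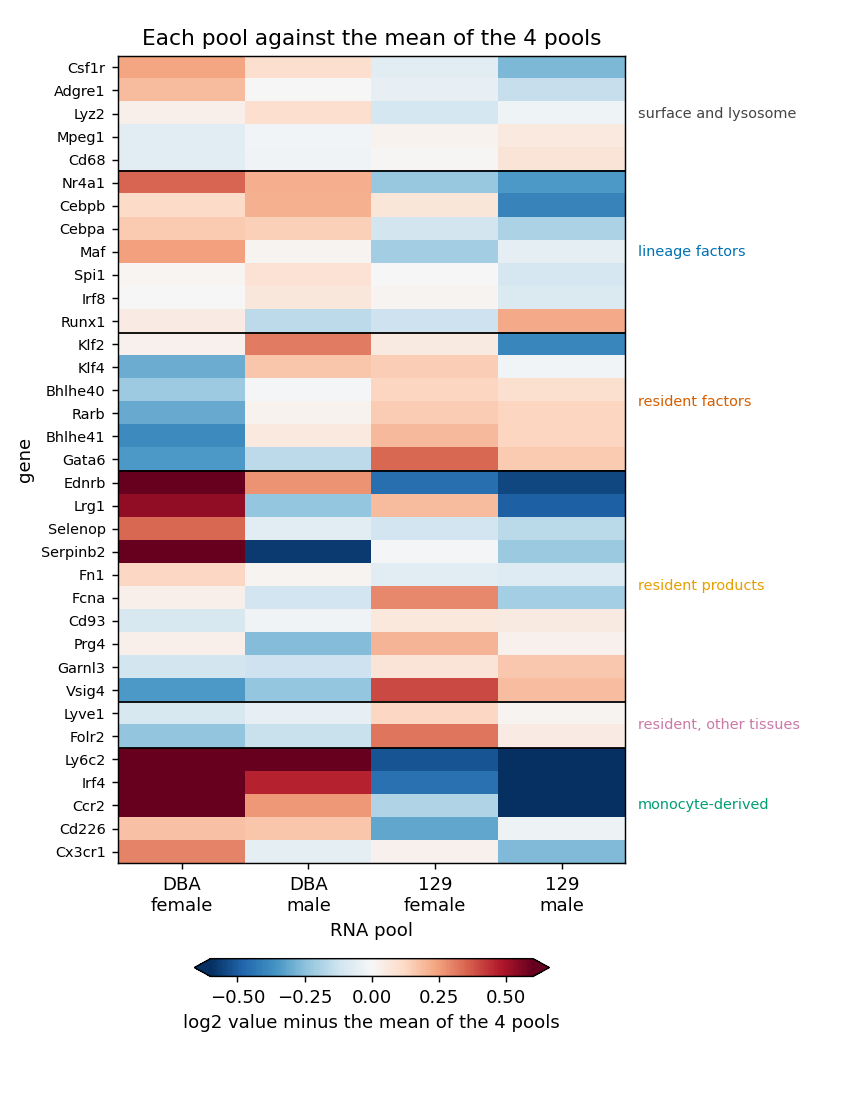
Log2 value of each pool minus the mean of the 4 pools of the same gene, for the 35 measured genes in their 6 groups, with red above and blue below the mean. Colours stop at 0.6 on either side, which Ly6c2, Irf4, Ccr2, Ednrb and Serpinb2 pass, and the DBA female pool is the lowest of the 4 for Gata6, Rarb, Bhlhe40 and Bhlhe41.

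The products of resident peritoneal macrophages split between the strains. Vsig4, the complement receptor CRIg that clears C3-coated particles, had log2 values of 11.25 and 11.37 in DBA female and male pools, against 11.99 and 11.78 in 129 female and male pools. The strains did not overlap, and the difference was -0.58 ± 0.13, a ratio of 0.669 (limma adjusted p = 0.204). Ednrb, which encodes the endothelin receptor type B, stood the other way with 12.29 and 11.83 in DBA and 11.11 and 11.02 in 129. Both DBA pools were above, the difference was 1.00 ± 0.17, a ratio of 2.02, and the limma adjusted p was 0.130. It was 1.18 between the female pools and 0.81 between the male pools. Without the DBA male pool the Ednrb difference was 1.23 and passed, with an adjusted p of 0.0270, and over all alternatives its adjusted p ran between 0.0270 and 0.572.

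Of the other secreted products, Fn1, the fibronectin gene, and Selenop, which carries selenium in plasma, were wholly above in DBA, with differences of 0.14 ± 0.11 and 0.28 ± 0.16. Fn1 is made by many activated macrophages as well as by resident ones. Prg4, the gene of the lubricant proteoglycan 4, had 12.14 and 11.84 in DBA female and male pools and 12.31 and 12.13 in 129 female and male pools, a difference of -0.23 ± 0.15 with overlapping pools. Fcna, the gene of the lectin ficolin A, differed by -0.08 ± 0.19. These values show no single direction among the secreted products. Cd93, a receptor of phagocytes, differed by -0.12 ± 0.11, and Garnl3, whose product has a GTPase-activating domain, by -0.24 ± 0.11. Both were wholly below in DBA, and Garnl3 lay near the background reference with 7.44 and 7.43 in DBA and 7.63 and 7.72 in 129.

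Serpinb2, which encodes the protease inhibitor PAI-2 and is induced strongly in activated macrophages, varied widely between the DBA pools, which lay 1.38 apart. It had 11.96 in the DBA female pool and 10.58 in the DBA male pool, against 11.15 and 10.94 in the 129 female and male pools. The difference between strains was 0.23 ± 0.43, smaller than its error, and it ran in opposite directions in the sexes. Lrg1, the gene of a secreted leucine-rich glycoprotein, had 9.47 and 8.70 in DBA female and male pools and 9.12 and 8.44 in 129 female and male pools, so that it followed sex more than strain. Over the 10 products the median difference was 0.03, and 3 genes lay wholly above and 3 wholly below, against 23% and 21.4% of all genes. An unadjusted p under 0.05 was found for 1 gene in each direction (Ednrb and Vsig4), where 6.44% of all genes were higher and 5.08% lower. Factors and products together gave a median of -0.13 over 16 genes, of which 10 had negative differences, as had 10874 of all 22180 genes.

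Folr2 and Lyve1 mark resident macrophages of many other tissues. Folr2, the folate receptor beta gene, had 10.34 and 10.45 in DBA female and male pools, against 10.90 and 10.63 in 129 female and male pools. The difference was -0.37 ± 0.13, a ratio of 0.771, with a limma adjusted p of 0.388, and it was -0.56 between the female pools and -0.18 between the male pools. Lyve1, which encodes a hyaluronan receptor, lay near the background reference in every pool, between 7.32 and 7.54, and differed by -0.14 ± 0.11.

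The promoters of the resident genes Vsig4 and Folr2, lower in DBA, and Ednrb, higher in DBA, are shown, without that of Gata6. Whether these sequences bear on the strain differences was not tested. Each is the 250 bases before the most upstream RefSeq start on the C57BL/6J reference (GRCm38.p6), in the direction of the gene, so that it is neither the DBA nor the 129 sequence. Capitals mark GGAAGT, the core that PU.1 and other ETS factors bind, or a GATA motif (AGATAA or TGATAA), on either strand. The promoter table held 24 of the 35 genes. GGAAGT occurred in 19.7% of 32851 mouse promoters of this length, and in 7 of the 24. A GATA motif occurred in 16.6% of all and in 2 of the 24, and the C/EBP motif TTGCNNAA and the E-box CACGTG, which BHLHE40 and BHLHE41 bind, in 9.56% and 6.02% of all and in 3 of the 24 each. The windows below lie at chrX:96293439-96293688 and chr7:101857191-101857440 and chr14:103843702-103843951, all on the minus strand, and hold 1, 2 and 0 copies of GGAAGT, with no GATA motif.
Vsig4: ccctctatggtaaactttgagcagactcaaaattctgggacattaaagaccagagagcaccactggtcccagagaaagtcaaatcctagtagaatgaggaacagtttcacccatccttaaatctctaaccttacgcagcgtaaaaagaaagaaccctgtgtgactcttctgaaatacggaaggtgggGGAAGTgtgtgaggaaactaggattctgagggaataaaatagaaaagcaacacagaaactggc
Folr2: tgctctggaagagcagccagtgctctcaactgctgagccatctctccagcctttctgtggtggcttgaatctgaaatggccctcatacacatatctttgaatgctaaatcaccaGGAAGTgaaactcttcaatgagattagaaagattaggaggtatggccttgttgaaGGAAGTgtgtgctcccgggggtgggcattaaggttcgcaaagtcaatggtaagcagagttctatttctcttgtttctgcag
Ednrb: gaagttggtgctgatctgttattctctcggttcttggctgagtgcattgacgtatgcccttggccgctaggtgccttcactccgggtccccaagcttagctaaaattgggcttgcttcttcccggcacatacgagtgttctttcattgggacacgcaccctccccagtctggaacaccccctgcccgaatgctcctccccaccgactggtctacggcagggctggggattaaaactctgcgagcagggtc

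The monocyte-derived genes had a median difference of 0.92, the highest of the 6 groups of the 35 genes. Irf4 had log2 values of 9.14 and 8.95 in DBA female and male pools, against 8.03 and 7.81 in 129 female and male pools. The strains were separated by far more than the gap of 0.20 between the DBA pools or 0.23 between the 129 pools. The difference was 1.12 ± 0.14, a ratio of 2.17, and its limma adjusted p of 0.0543 missed the threshold. It was almost the same in the sexes, 1.11 in females and 1.14 in males. The call depended on the processing: with a trended and robust prior, a common median, the genes below background removed, or without the DBA male pool it passed, with an adjusted p between 0.0362 and 0.0438, and over all alternatives the adjusted p ran between 0.0362 and 0.348. IRF4 is also a factor of B cells, whose marker genes were higher in the DBA pools, by 1.75 ± 0.43 for Ms4a1 and 1.35 ± 0.39 for Cd79b, and by 1.05 and 0.75 without the DBA female pool. On the same log2 scale, Ms4a1 had 10.44 and 9.04 in DBA female and male pools, and 8.08 and 7.90 in 129 female and male pools. The part of B cells, or of other cells in the pools, in the Irf4 value was not tested.

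Ccr2, the receptor for CCL2 by which monocytes leave the bone marrow and enter inflamed sites, had 9.66 and 9.27 in DBA female and male pools, against 8.82 and 8.27 in 129 female and male pools. The DBA pools lay above, and in each strain the female pool was the higher. The difference was 0.92 ± 0.23, a ratio of 1.87, with a limma adjusted p of 0.246, and it was 0.84 between the female pools and 1.00 between the male pools. Ly6c2 encodes the Ly6C antigen that inflammatory monocytes carry and lose as they mature. It had 11.22 and 11.33 in DBA female and male pools, against 9.19 and 7.09 in 129 female and male pools, and the 129 male value is under the background reference. The DBA pools were nearly equal and the 129 pools 2.10 apart, so that the difference of 3.14 ± 0.63, a ratio of the mean linear levels of 6.90, had a limma adjusted p of 0.188.

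The size of the Ly6c2 difference turned on the 129 pools. Without the 129 female pool it was 4.19 and passed with an adjusted p of 0.0137, without the 129 male pool it was 2.09 with an adjusted p of 0.0728, and over all alternatives the adjusted p ran between 0.0137 and 0.521. Ly6c1, its near-identical neighbour on chromosome 15, had 5.23 and 5.27 in DBA and 4.43 and 5.33 in 129, all under the background reference and overlapping. Since probes of one gene can read RNA of the other, the value of either gene is uncertain.

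Cd226, a surface marker of the small peritoneal macrophages, lay under the background reference in all 4 pools, with 6.94 and 6.93 in DBA female and male pools and 6.45 and 6.73 in 129 female and male pools, and its difference of 0.34 ± 0.13 (limma adjusted p = 0.420) is one between values near background. Cx3cr1, the fractalkine receptor gene, which is high on patrolling monocytes, had 9.57 and 9.21 in DBA and 9.30 and 9.01 in 129, a difference of 0.24 ± 0.17 with overlapping pools. Of the 5 genes, 4 had an unadjusted p under 0.05, all higher in DBA, where 6.44% of all genes were, and Cx3cr1 was the exception. The B cell markers, 4 of the 10 neutrophil markers and the mast cell gene Mcpt4 also had higher values in DBA, as given above. The other 6 neutrophil markers had negative differences, and the pools of the other 6 mast cell markers overlapped. The part of B cells, neutrophils and mast cells in the values of the monocyte-derived genes was not tested.

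Irf4, Ccr2 and Ly6c2 stood apart, with only the 129 male value of Ly6c2 under the background reference. The promoters of these 3 monocyte-derived genes are given in the same way, with the same capitals. They lie at chr13:30748983-30749232 and chr9:124101933-124102182 on the plus strand and at chr15:75111972-75112221 on the minus strand. The Ly6c2 window holds 1 GGAAGT, the Ccr2 window holds 1 GATA motif on the opposite strand, and the Irf4 window, with a GC content of 63.6%, holds neither. A match is only a run of letters in this window and says nothing of binding in these cells.
Irf4: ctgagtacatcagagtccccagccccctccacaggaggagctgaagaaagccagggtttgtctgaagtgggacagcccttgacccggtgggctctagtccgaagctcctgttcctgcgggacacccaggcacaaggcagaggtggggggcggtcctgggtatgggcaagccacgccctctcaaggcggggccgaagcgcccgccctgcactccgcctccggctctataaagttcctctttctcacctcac
Ccr2: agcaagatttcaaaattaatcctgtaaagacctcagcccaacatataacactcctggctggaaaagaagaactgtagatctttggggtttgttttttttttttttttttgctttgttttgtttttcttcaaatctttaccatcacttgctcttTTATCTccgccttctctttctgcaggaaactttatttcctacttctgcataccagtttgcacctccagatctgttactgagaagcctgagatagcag
Ly6c2: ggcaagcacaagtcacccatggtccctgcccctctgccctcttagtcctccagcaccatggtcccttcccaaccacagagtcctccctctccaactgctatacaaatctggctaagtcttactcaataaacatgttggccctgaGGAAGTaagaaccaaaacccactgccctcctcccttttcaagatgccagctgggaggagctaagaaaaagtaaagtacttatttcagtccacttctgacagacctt

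Beyond the 35, further genes of the same classes were counted. Over all genes tested, 0.216% passed the adjusted threshold with higher and 0.158% with lower values in DBA. At an unadjusted p under 0.05 in limma the shares were 6.44% and 5.08%. Of 17 other macrophage genes measured, 0 passed the adjusted threshold in limma, 2 were higher and 1 lower in DBA at an unadjusted p under 0.05, and the median difference was -0.04. Those 3 were Aif1, which encodes the macrophage calcium-binding protein IBA1 (1.46 ± 0.29), Fcgr1, the gene of a high-affinity IgG receptor (0.97 ± 0.25), and Mertk, a receptor for apoptotic cells (-0.30 ± 0.12). Aif1, with an adjusted p of 0.188, passed with sex as a replicate block (0.0497) and without the DBA male pool (0.0425). Of 18 other resident peritoneal genes, 0 passed, 4 were higher and 0 lower at the unadjusted threshold, and the median was 0.15. The first 3 of these by p were Alox15, a lipid oxygenase of resident macrophages (1.81 ± 0.29, limma adjusted p = 0.111), Slpi, a protease inhibitor (0.52 ± 0.12), and Naip5, a sensor of bacterial flagellin (0.41 ± 0.15). Alox15 passed with sex as a replicate block (0.0443) and without the DBA female or the DBA male pool (0.0494 and 0.00897). Of the 18, 13 had positive differences, as had 11306 of all 22180 genes. The DBA pools lay wholly above for 9 and wholly below for 0, against 23% and 21.4% of all genes. Those 9 genes thus did not share the direction of Gata6 and Vsig4. The pools of the other 9 overlapped, and 6 of the 18 differed in opposite directions in the sexes.

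Of 17 other monocyte and monocyte-derived genes, 1 rose and 1 fell at the adjusted threshold, against 0.216% and 0.158% of all genes. Treml4, a receptor-like gene of the TREM cluster, had 10.00 and 9.96 in DBA female and male pools, against 8.81 and 8.47 in 129 female and male pools, a difference of 1.34 ± 0.14 with a limma adjusted p of 0.0359. Itgax, which encodes CD11c of dendritic cells and some macrophages, had 10.93 and 10.91 in DBA and 12.64 and 12.64 in 129, a difference of -1.72 ± 0.10 with an adjusted p of 0.0100. At the unadjusted threshold 6 of the 17 were higher and 1 lower, against 6.44% and 5.08% of all genes, and the median was 0.32. Retnla, which alternatively activated macrophages express, had 11.26 and 10.61 in DBA and 7.87 and 6.18 in 129, the last under the background reference, and its difference of 3.91 ± 0.54 had an adjusted p of 0.0759. Retnla passed with sex as a replicate block (0.0274), with a trended and robust prior (0.0404) and without the DBA male or the 129 female pool (0.0277 and 0.0424). The calls of Treml4 and Itgax thus went in opposite directions. Both were lost when every probe set was tested and without either 129 pool, where the adjusted p was 0.0767 and 0.168 for Treml4 and 0.0594 and 0.0807 for Itgax without the 129 female and the 129 male pool, and that of Treml4 was also lost with sex as a block (0.0666).

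Female and male pools were compared with strain in the model. No gene of the 35 passed in this comparison, where 0.018% of all genes passed in either direction. At an unadjusted p under 0.05, 3 of the 35 were higher in females and 0 were higher in males, against 1.2% and 0.523% of all genes. These were Serpinb2, by 0.80 ± 0.29, Lrg1, by 0.72 ± 0.14, and Ccr2, by 0.47 ± 0.15. Lrg1 and Ccr2 were higher in the female pool in both strains, whereas the Serpinb2 value came mainly from the DBA pools. The strain difference had the opposite sign in females and males for 6 of the 35 genes (Irf8, Runx1, Klf2, Klf4, Serpinb2 and Fcna), and an interaction of strain and sex could not be tested with 4 pools.

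**Figure D4:**
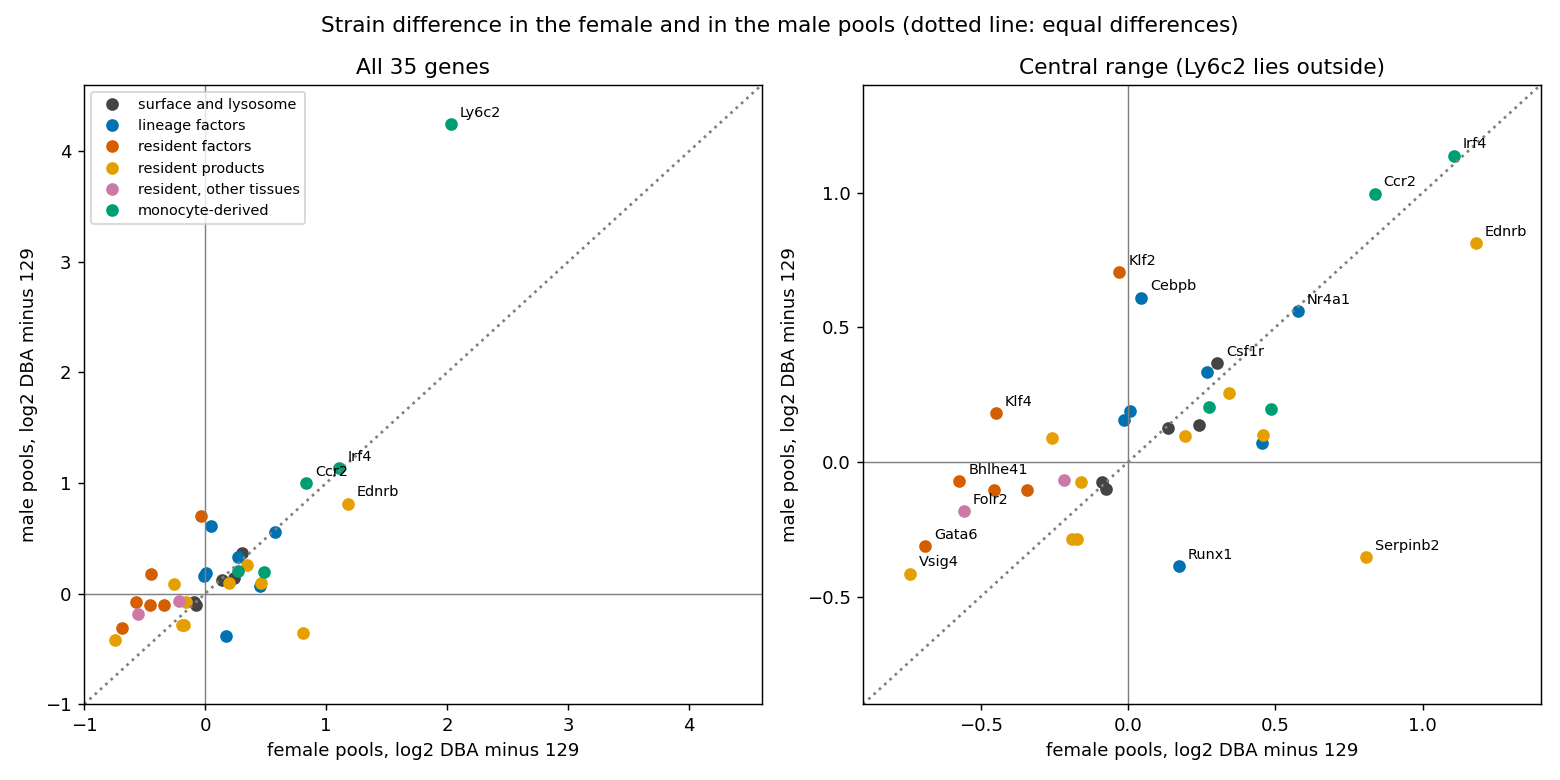
Log2 difference DBA minus 129 in the female pools (horizontal axis) and in the male pools (vertical axis) for the 35 measured genes, with all genes at the left and the central range without Ly6c2 at the right. Irf4, Ccr2 and Nr4a1 lie near the dotted line of equal differences, Gata6 and Vsig4 lie below 0 on both axes, and Ly6c2 lies at 2.03 in females and 4.25 in males.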

How the data were processed

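RNA of each pool was hybridised by the authors to 1 Affymetrix whole-transcript mouse gene array. They used Affymetrix Expression Console and deposited log2 values of 41345 probe sets, which were analysed as deposited, and the sources used here do not give the version, background correction or normalization. Probe sets with 1 symbol (23521, of which 23328 matched RefSeq by gene ID) were kept, and those with several (1820) or none (16004) left out. The probe set with the highest mean stood for a gene, and 1082 genes had several.

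Strain was the only term in limma 3.58.1 (R 4.3.3, lmFit and eBayes, default prior), since the methods average both sexes, with 2 residual degrees of freedom and a prior of 3.73. Benjamini-Hochberg adjustment covered all 22180 genes, and an adjusted p under 0.05 was a call. Differences of mean log2 values are given ± SE, and ratios are of mean linear levels. P-values measure only the spread between these pools, sexes included. A sequence difference between the strains under a probe could shift a value in both pools of a strain alike, which this spread would not show. Whether that occurred was not tested for any gene, so the strain differences given are differences of array values. Sex was tested with strain in the model (1 residual degree of freedom). The procedure was tested on simulated data, and the few arrays limit precision throughout.

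The genes, lists, motifs, background reference and alternatives were chosen with earlier results of these data known. Every listed gene on a single-symbol probe set is reported, with full statistics below an unadjusted p of 0.05. Up to 3 genes of each further list are named by smallest p, and marker genes and Ly6c1 were chosen after their values were seen. Alternatives changed the model (sex blocked, prior trended and robust), the scaling (quantile, common median), the features (genes below background removed, probe sets averaged, every probe set tested) and the pools (each left out), and for sex left strain out.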

Additional observations from a re-analysis of the deposited data

Results flagged for a closer look

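Serpinb2 differed between the strains in opposite directions in the sexes. DBA minus 129 was 0.81 on the log2 scale in the female pools and -0.35 in the male pools. Each value compares 1 pool with 1 pool, and the difference between the sexes was not tested. Groups of 2 pools are too small to look for outlying samples.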

How the results depend on the processing

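Over 11 alternatives, 30 of the 35 genes kept their direction throughout, and with all 4 pools no gene reversed. Much of this was fixed by the design. The block, the prior, the removal of genes below background and the test of every probe set leave a difference of means unchanged. A gene whose pools do not overlap (15 wholly above and 11 wholly below) cannot reverse when 1 pool is left out. Reversals came only when a pool was left out: Runx1 to 0.068 without the 129 male pool, Klf4 to 0.10, Serpinb2 to -0.46 and Lrg1 to -0.084 without the DBA female pool, Lrg1 to -0.04 without the 129 male pool, and Fcna to 0.16 without the 129 female pool. Leaving out each pool in turn gave between -0.283 and 0.068 for Runx1, -0.37 and 0.10 for Klf4, -0.46 and 0.92 for Serpinb2, -0.33 and 0.16 for Fcna, and -0.084 and 0.683 for Lrg1. Of the further genes named, Ly6c1, below background, reversed to -0.0762 without the 129 female pool and reached 0.817 when the 129 male pool was left out, and Msln gave -0.27 without the DBA male pool and 0.47 without the DBA female pool.

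The count of these genes higher in DBA at the adjusted threshold was 0, and 1 (Irf4) with a trended and robust prior, with a common median and with genes below background removed, and between 0 and 2 without 1 pool (Irf4 and Ednrb without the DBA male pool, Ly6c2 without the 129 female pool). None was lower under any alternative. At the unadjusted threshold 8 were higher, 5 with sex as a replicate block and between 5 and 8 without 1 pool, and 3 were lower, between 1 and 4 without 1 pool. Over all genes 83 passed, 47 with the replicate block, 129 with the trended and robust prior, 101 with quantile normalization or a common median, 0 when all probe sets were tested together (3471 at an unadjusted p under 0.05), and between 6 and 186 without 1 pool (135 without the DBA female, 186 without the DBA male, 16 without the 129 female and 6 without the 129 male pool). The median of the surface and lysosomal genes, 0.13, was 0.16 with a common median and between 0.0914 and 0.144 without 1 pool. Without 1 pool the median of the monocyte-derived genes lay between 0.64 and 1.19, of the resident factors between -0.41 and -0.11, of the lineage factors between 0.09 and 0.28, and of the resident products between -0.12 and 0.16, with a change of sign. The median of all genes was 0.04 with quantile normalization or a common median. The cause of these changes was not tested. The block paired pools by sex, not by numbers in the labels, and the lone pool left in a strain was assumed to vary like the other strain. Without 1 pool the sex comparison had no residual degrees of freedom and was not run. In its other alternatives 0 of the 35 genes passed. Low signal limits Cd226, and the 129 male value of Ly6c2.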
